A study of Mus musculus with 52 samples.

Results

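Isg15, Ifit1, Ifit2, Ifit3, Usp18, Ifi44, Rtp4, Oasl2, Oas1a and Phf11d are 10 genes that interferon switches on, followed here through ER stress in mouse embryonic fibroblasts. They were taken by gene symbol, and each was found in both deposited tables, making 10 of 22417 genes. They were selected on scores in these same columns, with earlier results of the data known and no record of which columns weighed most, so all values below are descriptions. All cells carried 1 mutant copy of CReP and intact GADD34 (CReP+/-; GADD34+/+), which are regulatory subunits of the phosphatase that removes phosphate from the translation factor eIF2 alpha, and no group without the CReP mutation is compared here. They were untreated, treated for 0.5, 1, 2 or 4 h with thapsigargin (Tg), which empties the calcium store of the endoplasmic reticulum (ER), or treated with dithiothreitol (DTT, a reducing agent) for 30 min with 0, 10 or 20 min of recovery. ER and cytosol fractions were prepared, and ribosome footprints (fragments of mRNA covered by a ribosome) and mRNA were sequenced from each. The labels do not say how the fibroblasts were derived or whether they are 1 clone.

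Type I interferon is sensed by the receptor IFNAR1/IFNAR2, whose kinases JAK1 and TYK2 activate transcription factors. These bind an interferon-stimulated response element in front of their target genes, and IRF family factors read a closely related sequence. The target genes make proteins that hold back viruses in the cytosol, and fibroblasts keep a low level of many of them without any infection. Most of these proteins have no signal peptide, so their mRNAs are of the kind read by ribosomes in the cytosol as well as by ribosomes at the ER surface.

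There were 52 samples, 2 for each of 26 groups, with 40 in the Tg series and 12 in the DTT series. The authors deposited 1 score per gene and column, pooled over the 2 samples of a group for untreated cells and Tg. No difference can thus be set against a spread between replicates, no test was possible, and the depth is unknown. Each DTT fraction and time has 2 samples, whose labels name no assay, yet both a footprint and an mRNA column. A DTT column may therefore rest on 1 sample, and whether it pools replicates is not stated. All 10 genes had a footprint score in every column. mRNA scores were present for 2 to 10 of them per Tg column and 4 to 9 per DTT column, and what a blank cell stands for is not stated. For the fibroblast label, 8 of 8 fibroblast markers had an ER footprint score in untreated cells, with a sum of 6271, and under Tg their sum was between 2177 and 4911. Of 8 blood cell markers in the table, 1 had a score there, of 1.16, and 7 were blank in every column, among them Ptprc, Csf1r, Emr1, Lyz2, Itgam and Cd3e. The sum of the epithelial markers was 0.646 and that of the endothelial markers 0.555. A sum adds scores of different genes, on a scale that may depend on gene length, and S100a4 (3653) and Vim (1192) made up most of the fibroblast one. Any part of these sums in the results below was not tested.

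The promoters are shown because the response element can be read in some of them. The RefSeq promoter table of build GRCm38.p6 held windows for 8 of the 10 genes and none for Usp18 or Rtp4. Each window has 300 bases, 250 before and 50 after the transcription start. The motif searched was GAAANNGAAA, or TTTCNNTTTC on the other strand, where N is any base. It occurred in 4 of the 8 genes, which have 9 windows between them, and in 3.44% of all 32851 windows. The lines give the 250 bases before the start, 5′ to 3′ on the gene's own strand, with motif matches in capitals. Isg15 had 3 matches that overlap, with first bases at −78, −72 and −66 from the start.
Isg15, chr4:156200819-156201068, minus strand: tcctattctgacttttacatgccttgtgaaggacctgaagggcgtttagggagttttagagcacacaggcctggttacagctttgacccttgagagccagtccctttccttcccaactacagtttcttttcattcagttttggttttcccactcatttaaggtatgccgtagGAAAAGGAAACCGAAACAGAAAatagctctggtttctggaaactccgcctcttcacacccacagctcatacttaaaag
Ifit1, chr19:34640639-34640888, plus strand: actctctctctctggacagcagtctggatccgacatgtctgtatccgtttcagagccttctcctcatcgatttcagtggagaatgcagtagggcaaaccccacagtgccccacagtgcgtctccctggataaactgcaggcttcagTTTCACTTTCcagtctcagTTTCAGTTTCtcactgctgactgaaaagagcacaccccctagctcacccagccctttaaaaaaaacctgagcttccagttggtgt
Ifit3, chr19:34583279-34583528, plus strand: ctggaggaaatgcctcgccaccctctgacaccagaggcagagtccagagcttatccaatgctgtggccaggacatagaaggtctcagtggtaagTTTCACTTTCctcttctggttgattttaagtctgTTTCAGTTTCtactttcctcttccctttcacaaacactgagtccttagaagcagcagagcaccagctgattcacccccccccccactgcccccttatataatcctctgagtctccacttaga
Oas1a, chr5:120907526-120907775, minus strand: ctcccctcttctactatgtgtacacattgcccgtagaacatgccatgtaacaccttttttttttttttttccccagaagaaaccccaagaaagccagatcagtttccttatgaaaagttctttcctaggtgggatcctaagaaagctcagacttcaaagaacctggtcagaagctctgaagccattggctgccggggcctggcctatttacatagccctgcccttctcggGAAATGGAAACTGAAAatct
Ifit2, chr19:34550444-34550693, plus strand: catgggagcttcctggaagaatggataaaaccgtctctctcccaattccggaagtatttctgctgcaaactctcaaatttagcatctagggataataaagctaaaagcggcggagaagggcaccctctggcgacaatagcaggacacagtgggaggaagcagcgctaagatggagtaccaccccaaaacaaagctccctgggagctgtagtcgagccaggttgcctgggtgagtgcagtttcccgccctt
Ifit1 had matches at −104 and −85, Ifit3 at −156 and −122, and Oas1a had overlapping matches at −20 and −14. No match was found in the windows of Ifi44, Oasl2 and Phf11d, nor in either of the windows listed for Ifit2, of which the first is shown. A match describes the letters in the window, and says nothing of binding. Any link between a match and the time courses below was not tested.

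Most of the set shared a pattern of 2 phases under Tg, and it was steepest at the ER. After 0.5 h, ER footprints of 9 of the 10 genes were more than 2-fold below untreated cells, where 14.2% of all genes were, and after 4 h those of 9 were more than 2-fold above, where 5.03% were. Ifit2 was the exception both times. The differences below are of log2(score + 1), so they understate the change of low scores, and a gene is counted when the difference exceeds 1 in size.

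Isg15 encodes a ubiquitin-like protein that is attached to other proteins. Its ER footprint score was 234 in untreated cells and 17.3, 239, 534 and 744 after 0.5, 1, 2 and 4 h of Tg. Its cytosol score was 535 in untreated cells and 260, 292, 770 and 1216 over the Tg times. The ER score at 0.5 h was thus 7.40% of the untreated one, a log2 difference of -3.68, whereas the cytosol score was 48.6% of it. By 4 h the ER score was 3.18-fold and the cytosol score 2.27-fold the untreated level.

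Usp18 encodes the protease that takes ISG15 off its targets and also damps signalling at the interferon receptor. It scored 26.3 in the ER of untreated cells and 1.24, 15.9, 73.3 and 105 over the 4 Tg times. In the cytosol it scored 59.4 in untreated cells and 34.97, 36.2, 100.1 and 141 over the same times. The ER value at 0.5 h was 4.71% of the untreated one, and the 4 h value was 3.98-fold the untreated one, the highest 4 h ratio of the 10 genes at the ER. At 1 h the ER score of Usp18 was still below the untreated one, while that of Isg15 was back at it.

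The IFIT proteins are repeat proteins that bind RNA. Ifit1, which recognises viral mRNA with an incompletely methylated cap, had ER scores of 43.7 in untreated cells and 2.89, 16.5, 133 and 110 over the Tg times. In the cytosol its scores were 79.9 in untreated cells and 48.6, 46.0, 172 and 157 over the Tg times. It was highest at 2 h in both fractions, and its ER differences were -3.52 at 0.5 h and 1.31 at 4 h. Ifit3, a partner of other IFIT proteins, went through ER scores of 36.8, 6.98, 12.7, 93.2 and 88.6 from untreated cells to 4 h. Its cytosol scores over the same columns were 81.1, 46.1, 31.1, 87.8 and 135. Reads of Ifit3 are uncertain because mouse has a near-identical copy, and whether the authors' counting split them was not tested.

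Ifit2, an IFIT protein linked to cell death, did not share the pattern. Its ER scores were 11.6 in untreated cells and 17.4, 12.4, 26.4 and 17.7 over the Tg times, and the untreated value was the lowest of them. Its cytosol scores were 22.1 in untreated cells and 22.6, 23.02, 31.9 and 23.8 over the Tg times. Its ER difference at 0.5 h was 0.55, against -3.52 for Ifit1 and -2.24 for Ifit3, and in the cytosol it was 0.03. At 2 h the ER difference of Ifit2 was 1.13, so it joined the other genes at that time, and at 4 h it was 0.57.

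The oligoadenylate synthetases make short adenylate chains on double-stranded RNA, and these chains activate RNase L. Oas1a had ER scores of 20.6 in untreated cells and 3.69, 18.4, 38.4 and 48.0 over the Tg times. Its cytosol scores were 45.6 in untreated cells and 43.6, 38.7, 73.0 and 64.2 over the Tg times. Its cytosol score at 0.5 h was 95.6% of the untreated one while its ER score was 17.9%, so its early difference lay on the ER side. Reads of Oas1a may be shared with the related Oas1 copies of mouse, which was not tested. Oasl2, a relative that carries ubiquitin-like domains, had ER scores of 13.2, 1.52, 18.1, 22.9 and 34.2 from untreated cells to 4 h. Its cytosol scores were 31.4, 23.2, 20.2, 29.6 and 45.3 over those columns.

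Ifi44, a commonly used marker of the response, had an ER score of 0.580 at 0.5 h, against 11.3 in untreated cells. Its ER scores at 1, 2 and 4 h were 4.02, 29.1 and 39.3. In the cytosol its scores were 23.6 in untreated cells and 14.9, 22.6, 38.1 and 51.9 over the Tg times. Its ER score had therefore not returned to the untreated level by 1 h, while its cytosol score was close to it.

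Rtp4, of the receptor transporter protein family, had ER scores of 41.5, 3.48, 43.8, 143 and 116 from untreated cells to 4 h. Its cytosol scores were 82.5, 50.6, 78.5, 198 and 138. Like Ifit1, it was highest at 2 h in both fractions. Phf11d, 1 of several closely related PHD finger genes of mouse whose reads may be shared, had ER scores of 19.2, 1.73, 3.68, 32.1 and 44.9. Its cytosol scores were 63.7, 28.4, 21.5, 67.7 and 97.4. Phf11d was the slowest to come back, with an ER difference of -2.11 still at 1 h.

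**Figure D1:**
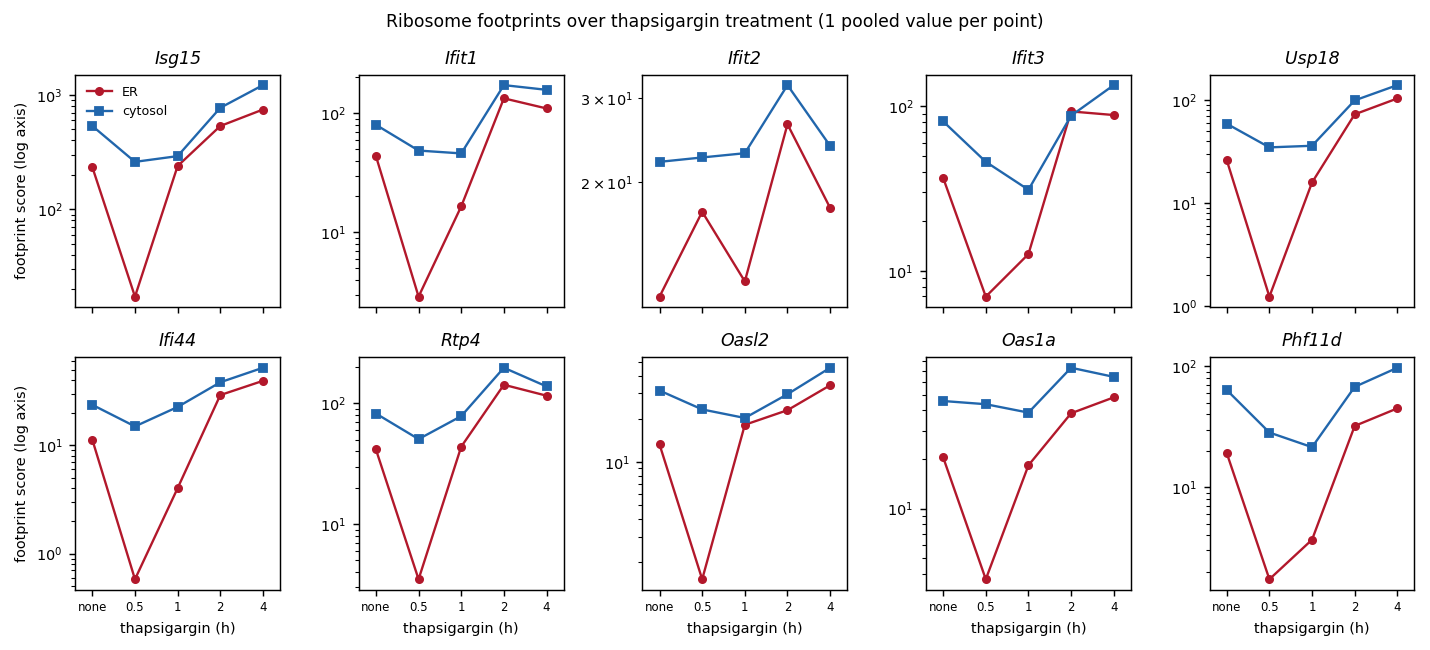
Footprint score (log axis, own scale per gene) of each of the 10 genes in untreated cells (none) and after 0.5, 1, 2 and 4 h of thapsigargin. Each point is 1 pooled deposited value, for the ER (red circles) or the cytosol (blue squares); 9 ER curves have their lowest point at 0.5 h, and the Ifit2 curve does not.

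Across the set, the ER scores were lowest at 0.5 h in 9 genes and highest at 4 h in 6 and at 2 h in 4. In the cytosol the lowest column was 1 h in 5 genes, 0.5 h in 4 and untreated in 1. Ifit1, Ifit3, Oasl2, Oas1a and Phf11d thus had their lowest ER score a column before their lowest cytosol score, an order that was not tested. These are scores of whole cultures, so fewer cells making a protein and fewer ribosomes per cell cannot be told apart.

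Set beside all genes, the 0.5 h difference was the larger departure. At the ER, 9 of the 10 genes were over 2-fold lower at 0.5 h, where 14.2% of 11886 genes were, and the median difference was -2.92, against -0.17 over all genes. In the cytosol 2 of the 10 were over 2-fold lower (Isg15 with -1.04 and Phf11d with -1.14), where 0.434% of genes were. The cytosol median of the set was -0.70 while that of all genes was 0.23, and all 10 genes lay below the median of all genes. Averaged over the fractions, 9 genes were over 2-fold lower, where 1.9% of genes were. With the fractions summed instead, Oasl2 (-0.83) and Oas1a (-0.48) were no longer among them.

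At 1 h the genes parted. Ifit1, Ifit3, Ifi44 and Phf11d were still over 2-fold lower at the ER, with differences of -1.35, -1.47, -1.29 and -2.11, where 6.32% of genes were. Isg15, Rtp4, Oas1a and Oasl2 were back near the untreated level there, with differences from -0.15 to 0.43. In the cytosol Ifit3 and Phf11d were over 2-fold lower, where 2.95% of genes were. Averaged over the fractions, 3 genes were over 2-fold lower at 1 h (Ifit1, Ifit3 and Phf11d), where 2.02% of genes were, and Ifit1 was at -0.97 with the fractions summed.

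By 2 h all 10 genes were above untreated cells at the ER, and 7 of them by over 2-fold, where 6.64% of genes were. The 3 below that size were Oasl2, Oas1a and Phf11d, with 0.75, 0.87 and 0.72. In the cytosol Ifit1 and Rtp4 were over 2-fold higher at 2 h, where 11.2% of genes were, and Oasl2 was at -0.08. The average of the fractions put Ifit1, Rtp4 and Usp18 over 2-fold, where 6.29% of genes were, and Usp18 was at 0.97 after centring on the median of all genes.

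At 4 h the 9 genes over 2-fold higher at the ER had differences from 1.18 (Oas1a) to 1.95 (Usp18), where 5.03% of genes were over 2-fold higher. The median of the set was 1.31, against 0.13 over all genes. In the cytosol Isg15, Usp18 and Ifi44 were over 2-fold higher, where 4.92% of genes were, and all 10 were above untreated cells. Averaged over the fractions, 5 genes were over 2-fold higher, where 3.64% of genes were. All the Tg comparisons share the same untreated columns, so their values are given side by side and not as independent evidence.

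**Figure D2:**
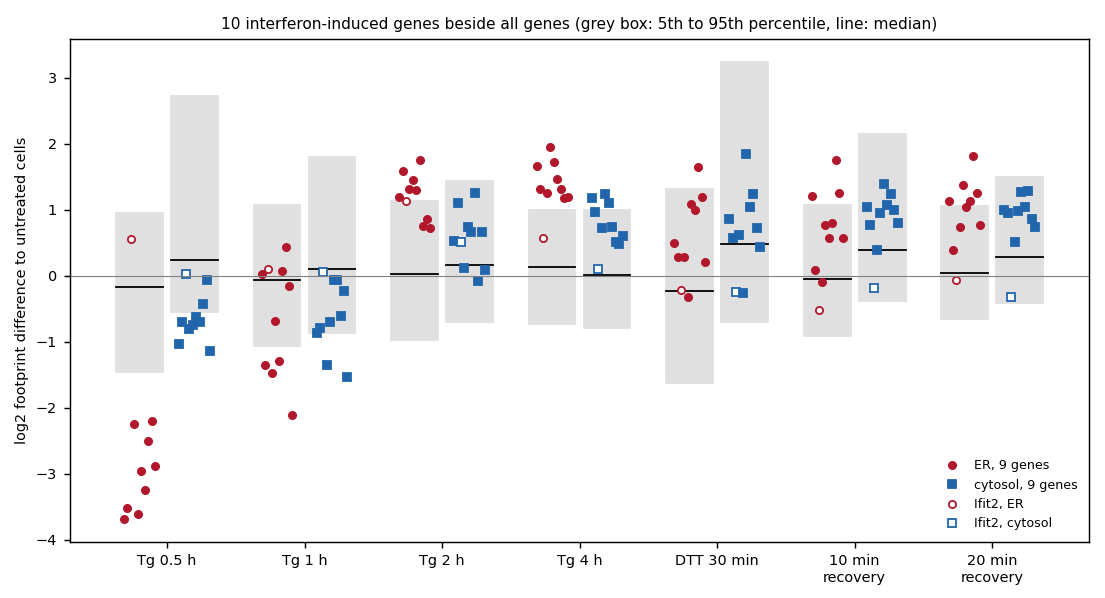
Difference in log2(footprint score + 1) to untreated cells at each Tg time, after 30 min of DTT and in recovery, for the ER (red circles) and the cytosol (blue squares), 1 point per gene and Ifit2 hollow. Grey boxes span the 5th to 95th percentile of all genes and black lines their median; at Tg 0.5 h the 9 other genes lie below the ER box, from -2.20 to -3.68.

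The division of footprints between the fractions shifted with the same timing. The ER share below is the ER score over the sum of both scores, on the authors' scale, whose constant between fractions is not known. In untreated cells it was 23.1% to 35.3% with a median of 31.2%, and the median of genes without the authors' TRUE mark was 38.9%. At 0.5 h of Tg the median of the set was 6.19%, with Usp18 at 3.42% and Ifi44 at 3.74%, while the unmarked genes had 33.7%. At 1, 2 and 4 h it was 31.4%, 42.8% and 42.6%, against 38.9%, 40.6% and 44.2% for unmarked genes. Ifit2 kept a share of 43.5% at 0.5 h. The mark stands in a column without a header, and Rtp4 was the only one of the 10 with TRUE. Its ER share in untreated cells was 33.5%, near that of the unmarked genes and far from the 90.7% median of marked genes.

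As a log2 difference of ER to cytosol scores in untreated cells, the 10 genes ran from -1.68 (Phf11d) to -0.86 (Ifit1). Of them, 7 were over 2-fold lower at the ER, where 13% of genes were. All genes together had a median of -0.46, and after subtracting it 1 of the 10 (Phf11d) was over 2-fold lower. The set thus stood a little to the cytosol side before treatment.

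mRNA could be followed for fewer genes. In untreated cells 1 of 4 genes (Oas1a) had an mRNA score over 2-fold higher at the ER than in the cytosol, where 12.7% of all genes did. Ifit2 alone had an mRNA score in every column. Its ER mRNA score was 82.2 in untreated cells and 50.6, 49.8, 61.6 and 66.5 over the Tg times, and its cytosol mRNA score was 55.5, 32.4, 37.2, 59.4 and 61.2. At 0.5 h, when its footprints were equal or higher, its mRNA scores were lower, with differences of -0.69 at the ER and -0.76 in the cytosol. The other genes with a cytosol mRNA score at both times went the other way: Oas1a had 20.1 at 0.5 h against 10.8 in untreated cells, and Phf11d had 23.04 against 12.4. Their cytosol footprints at 0.5 h were level (Oas1a, -0.06) or lower (Phf11d, -1.14).

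Isg15 had an ER mRNA score of 47.8 at 0.5 h, 36.0 at 2 h and 67.6 at 4 h, and was blank in untreated cells and at 1 h. Its ER footprint scores at those 3 times were 17.3, 534 and 744, so the footprints differed far more between the times than the mRNA did. Averaged over the fractions, mRNA differences could be formed for 1, 3, 4 and 4 of the 10 genes at 0.5, 1, 2 and 4 h, and none was over 2-fold. Of all genes, 1.17%, 0.525%, 1.31% and 2.79% were over 2-fold higher at those times, and 0.413%, 0.736%, 0.573% and 0.505% lower. Within the cytosol, mRNA was over 2-fold higher at 4 h for Oas1a (1.203) and Phf11d (1.21), where 4.18% of genes were, and at 2 h for Ifit1 (1.09), where 3.52% were. Within the ER, Ifit3 mRNA was lower at 1 h (-1.85), where 6.34% of genes were over 2-fold lower, as were its ER footprints (-1.47).

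Ribosome density is a deposited quantity whose header gives no definition. It was read here as a ratio of footprints to mRNA, in which gene length cancels if both were scaled alike. At 4 h of Tg the ER density was 11.2 for Isg15, 5.45 for Usp18, 4.63 for Ifit1 and 3.80 for Rtp4. It was between 1.84 and 2.31 for Ifi44, Oas1a, Ifit3, Phf11d and Oasl2, and 0.314 for Ifit2, where the median of all genes was 0.904. Isg15 lay above 99.6% of the genes in that column and Ifit2 above 16.5%. In the cytosol at 4 h Isg15 had 22.9 and Ifit2 0.390, with a median of 1.42 over all genes. Isg15 and Ifit2 thus stood at opposite ends of the set, and neighbours in between cannot be told apart without replicates.

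Over time, Isg15 had an ER density of 0.375 at 0.5 h, 15.5 at 2 h and 11.2 at 4 h. Ifit2 had ER densities of 0.140 in untreated cells and 0.343, 0.239, 0.458 and 0.314 over the Tg times. At 2 h and 4 h, averaged over the fractions, none of the 4 genes compared differed from untreated cells by over 1 in log2(density + 1). Of all genes, 0.791% and 0.143% were higher by that much, and 0.108% and 0.215% lower. The added 1 exceeds the ER median of all genes at 4 h (0.904), so these differences understate changes of low densities strongly. The ER density of Ifit2, 0.140 in untreated cells and 0.458 at 2 h, was thus not counted. In the cytosol alone, Phf11d density was lower at 0.5 h (0.529, against 6.90 in untreated cells), a log2 difference of -2.37, where 2.4% of genes were over 2-fold lower. There Rtp4 density was higher at 2 h (11.7, against 3.53 in untreated cells), where 2.48% of genes were over 2-fold higher.

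For several of these genes the deposited density is not the ratio of the deposited scores. The deposited density was divided by that ratio and by the column's median of it, and values beyond 1.5-fold were counted. In the ER at 1 h, 6 of 7 genes lay below, from 0.0834 for Rtp4 through 0.166 for Usp18, 0.221 for Ifit1 and 0.241 for Oas1a to 0.549 for Ifit3 and 0.552 for Phf11d, while 5.58% of all genes lay beyond the limit. In the cytosol at 1 h, 6 of 7 lay above, between 1.79 and 1.93, where 2.59% of all genes were beyond it. In the ER of untreated cells 3 of 4 lay above (Ifit1, Ifit3 and Oas1a, from 1.65 to 1.85), where 1.99% of all genes were beyond it. In the cytosol of untreated cells Ifit3 (1.55) lay above, where 0.997% of all genes were beyond it. At 0.5 h the cytosol density of Phf11d lay below (0.423), where 7.62% of all genes were beyond the limit, and neither of the genes with ER values did, where 0.772% were. At 2 h none of the set did, where 0.624% (ER) and 1.1% (cytosol) of all genes did, nor at 4 h, where 0.819% and 0.302% did. Ifit2 did so in none of its 16 density columns over both tables.

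For these genes the 2 deposited quantities therefore tell different accounts of the ER at 1 h. Rtp4 had an ER density of 0.121 there, but a footprint score of 43.8 over an mRNA score of 30.7. The single gene over 2-fold lower in density at 1 h, averaged over the fractions, was Ifit1 (-1.33), where 0.604% of genes were, and with the ratio of scores in its place none was. How the authors combined replicates in each quantity is not stated, and the source of the mismatch was not tested.

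**Figure D3:**
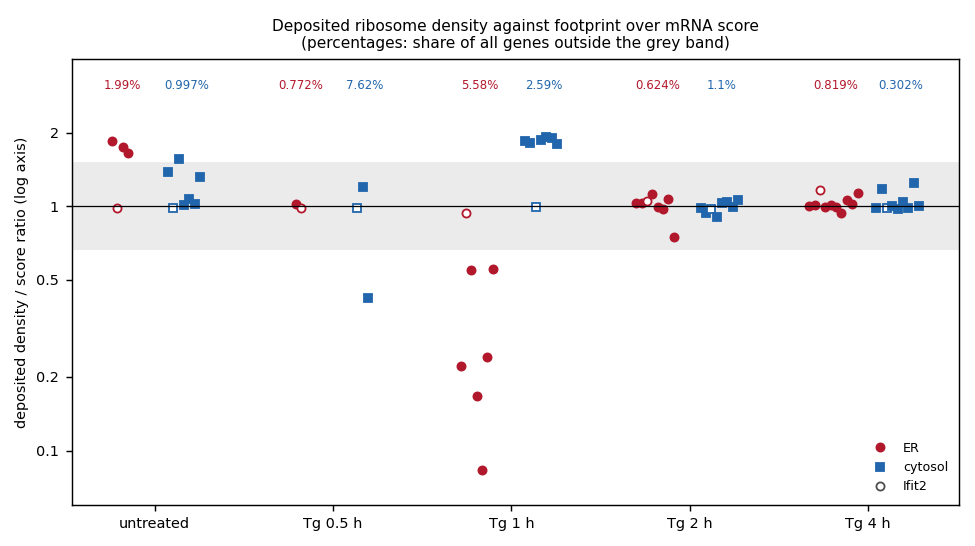
Deposited ribosome density over the ratio of the deposited footprint and mRNA scores, each column scaled to its median (log axis), for the genes of the set with all values in the Tg table; red circles are ER, blue squares cytosol, and Ifit2 is hollow. The grey band marks 1.5-fold to either side and the percentages give the share of all genes outside it; at 1 h, 6 ER points lie below the band and 6 cytosol points above it.

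After 30 min of DTT, as long as the shortest Tg treatment, the very low ER scores seen with Tg were absent. Its table repeats the untreated values of the Tg table, multiplied by 0.913 (ER) or 1.06 (cytosol), so both treatments are set against the same cells. Isg15 had ER scores of 213 in untreated cells, 301 after DTT and 496 and 467 after 10 and 20 min of recovery. Its cytosol scores over those columns were 564, 1025, 1161 and 1131. Every treated value of Isg15 was thus above the untreated one.

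Oasl2 differed most at the ER, with scores of 12.1 in untreated cells, 39.8 after DTT and 42.9 and 45.2 in recovery. Ifi44 differed most in the cytosol after DTT, with 24.9, 92.2, 66.9 and 61.6 over the same columns. Rtp4 had ER scores of 37.9, 76.6, 67.0 and 84.2 and cytosol scores of 87.1, 181, 184 and 181. After the DTT step these cytosol scores of Rtp4 were flat through the recovery. Oas1a had ER scores of 18.8, 44.5, 46.4 and 46.1, and Phf11d had 17.5, 20.3, 26.5 and 30.6. Ifit1 had 39.9, 48.9, 42.3 and 52.8, and Ifit3 had 33.6, 41.3, 31.6 and 56.4. Ifit1 and Ifit3 thus stayed closer to their untreated ER level than Oasl2 and Oas1a did.

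Usp18 kept a time course of its own. Its ER scores were 23.99 in untreated cells, 18.9 after DTT and 41.3 and 63.5 after 10 and 20 min of recovery, and its cytosol scores were 62.7, 52.2, 122 and 124. It was below untreated cells after DTT in both fractions and above them in recovery. Ifit2 again stood apart, with ER scores of 10.6, 8.95, 7.02 and 10.1 and cytosol scores of 23.3, 19.5, 20.3 and 18.4, each treated value below the untreated one.

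After 30 min of DTT, averaged over the fractions, Ifi44 (1.47), Oasl2 (1.44) and Rtp4 (1.02) were over 2-fold higher than untreated cells, where 17.7% of all genes were, so that share of the set is not far from the background. The median was 0.57 for the set and 0.21 for all genes, and after subtracting that of all genes Rtp4 was at 0.82. The 9 differences other than that of Ifit2 ran from -0.33 (Usp18) to 1.64 (Oasl2) at the ER after DTT, and from -2.20 to -3.68 after 0.5 h of Tg. The ER share of the set had a median of 27.3% after DTT, against 28.1% in untreated cells of that table. That of unmarked genes was 28.1% after DTT, against 35.5% in untreated cells, so the set's share differed less than theirs. After 0.5 h of Tg the median was 6.19% for the set and 33.7% for unmarked genes. These treatments were not compared by a test.

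After 20 min of recovery 6 genes were over 2-fold above untreated cells as an average of the fractions (Isg15, Usp18, Ifi44, Rtp4, Oasl2 and Oas1a), where 5.94% of genes were. After 10 min 3 were (Isg15, Oasl2 and Oas1a), where 9.49% of genes were. Set against the end of the DTT treatment, Usp18 alone was over 2-fold higher, with 1.15 at 10 min and 1.46 at 20 min, where 0.999% and 2.12% of genes were.

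mRNA in the DTT table was present for at least 4 of the genes per column. Phf11d had cytosol mRNA scores of 13.1 in untreated cells, 69.0 after DTT and 84.5 and 64.8 in recovery, while its cytosol footprints were 67.2, 91.1, 118 and 112. After DTT, cytosol mRNA was over 2-fold higher for 2 of the 6 genes compared, where 14.9% of genes were. The Phf11d difference of 2.32 was the largest of the 6. Its deposited cytosol density was 6.90, 1.48, 1.37 and 1.78. Oas1a mRNA in the cytosol was 11.4, 31.6, 35.2 and 38.0. Ifit2 mRNA at the ER was 75.05 in untreated cells and 31.1 and 25.3 in recovery, with a difference of -1.44 after DTT. Averaged over the fractions it was the 1 gene of 4 over 2-fold lower after DTT (-1.05), where 1.41% of genes were.

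In recovery some mRNA scores were over 2-fold above untreated cells and some over 2-fold below. Averaged over the fractions, Ifit1 (1.17) and Oas1a (1.15) of 3 genes were over 2-fold higher at 10 min, where 5.85% of genes were, and Oas1a (1.35) of 4 at 20 min, where 3.69% were. In the cytosol, Oas1a and Phf11d of 7 genes were over 2-fold higher at 10 min, where 17.2% of genes were. At 20 min these were joined by Ifit1 (1.302) and Rtp4 (1.01), making 4 of 7, where 12.6% of genes were. At the ER, Ifit1 was over 2-fold higher at 10 min (1.49), where 5.57% of genes were, and Ifit2 lower, where 3.12% were. At 20 min Oas1a was higher there (1.05), where 4.79% of genes were, and Ifit2 and Ifit3 (-1.28) lower, where 3.97% were.

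**Figure D4:**
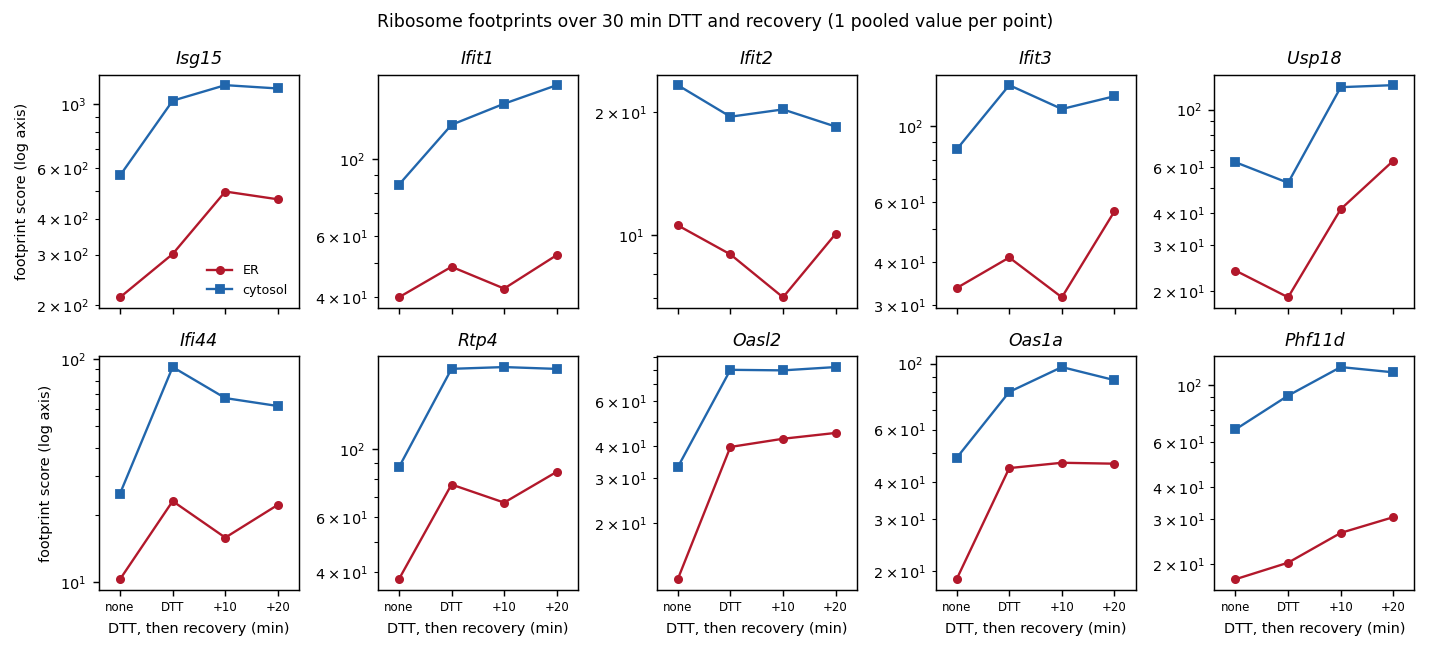
Footprint score (log axis, own scale per gene) of each of the 10 genes in untreated cells (none), after 30 min of DTT, and after 10 and 20 min of recovery, for the ER (red circles) and the cytosol (blue squares), 1 deposited value per point. Usp18 dips at DTT before its higher recovery values, and Ifit2 is highest in untreated cells in both fractions.

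The rest of the pathway was read from a list of 108 genes, of which 103 were in the tables. At the ER after 0.5 h of Tg, 44 of 81 with a score were over 2-fold lower and none higher, where 14.2% and 4.42% of all genes were, and the median was -1.09. At the ER after 4 h, 43 of 90 were over 2-fold higher and none lower, where 5.03% and 2.37% of all genes were, and the median was 0.96. In the cytosol 10 of 79 were over 2-fold higher and 2 lower at 0.5 h, where 17.6% and 0.434% of all genes were. There 20 of 87 were higher and 1 lower at 4 h, where 4.92% and 2.22% of all genes were.

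Among receptors and signal carriers, 9 of 13 were over 2-fold lower at the ER at 0.5 h, where 14.2% of all genes were. Over 2-fold higher at 4 h were 3 of 13, where 5.03% of all genes were. Ifnar1, a chain of the receptor, is a membrane protein made at the ER. It had ER scores of 17.7 in untreated cells and 4.97, 6.17, 8.51 and 12.8 over the Tg times, while its cytosol score was 1.02 in untreated cells and 7.78 at 0.5 h. Ifnar1 and others of this group that were lower at the ER at 0.5 h carry the TRUE mark. The median ER share of all marked genes was 90.7% in untreated cells and 47.5% at 0.5 h of Tg. The 9 of 13 can therefore not be read as particular to the interferon pathway. Ifnar2, the other chain, had ER scores of 25.8, 6.56, 13.8, 27.4 and 22.5 over those columns. Neither receptor chain was over 2-fold above untreated cells at the ER at 4 h.

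Stat2 had ER scores of 11.002, 4.19, 14.4, 38.4 and 31.3 from untreated cells to 4 h, and Irf9 had 17.2, 5.12, 16.1, 46.7 and 40.6. Both belong to the complex that reads the response element, and both were over 2-fold lower at 0.5 h and over 2-fold higher at 4 h at the ER. Socs3, a feedback inhibitor of cytokine signalling, was the gene over 2-fold lower at 4 h when averaged over the fractions (-1.10), where 1.12% of all genes were.

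Among sensors and IRF factors, Irf7 followed the set, with ER scores of 3.72, 0.403, 5.98, 6.39 and 13.2. Irf1 did not: its ER scores were 16.8 in untreated cells and 27.6, 58.3, 149 and 30.0 over the Tg times, highest at 2 h. Ifnb1, the interferon beta gene itself, had a single ER score in the Tg table, 3.24 at 2 h. Of 17 genes in the group, 6 were over 2-fold lower at the ER at 0.5 h, where 14.2% of all genes were. Of 18, 4 were over 2-fold higher at 4 h, where 5.03% of all genes were.

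Of the other antiviral effectors, 19 of 35 were over 2-fold lower at the ER at 0.5 h, where 14.2% of all genes were. Over 2-fold higher at 4 h were 24 of 38, where 5.03% of all genes were. Mx2, a dynamin-like GTPase, had the largest average difference of the list at 4 h (3.03), with ER scores of 1.25, 0.497, 1.73, 15.2 and 16.03. Mx1, its relative, had ER scores of 1.03, 0.388, 1.79, 6.84 and 8.87. Mx2 had an ER mRNA score of 7.79 at 1 h and 37.2 at 4 h. The mRNA scores of Mx1 and Mx2 were blank in the earliest columns, which does not date their mRNA, since the meaning of a blank is not stated. Eif2ak2, the kinase PKR, which phosphorylates eIF2 alpha on double-stranded RNA, had ER scores of 34.01, 9.004, 16.8, 53.8 and 68.5.

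The counts in this paragraph stand beside 14.2% of all genes over 2-fold lower at the ER at 0.5 h and 5.03% over 2-fold higher at 4 h. Among the other synthetases and RNase L, 2 of 4 were over 2-fold lower at the ER at 0.5 h and 4 of 5 over 2-fold higher at 4 h. Oasl1 had an average difference of 2.26 at 4 h and Oas1b of 2.11. Of the 4 genes of ISG15 attachment, 1 was over 2-fold lower at 0.5 h and none over 2-fold higher at 4 h, too few to set apart from those shares. The guanylate-binding and immunity-related GTPases had 7 of 8 over 2-fold lower at 0.5 h and 8 of 12 over 2-fold higher at 4 h at the ER.

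**Figure D5:**
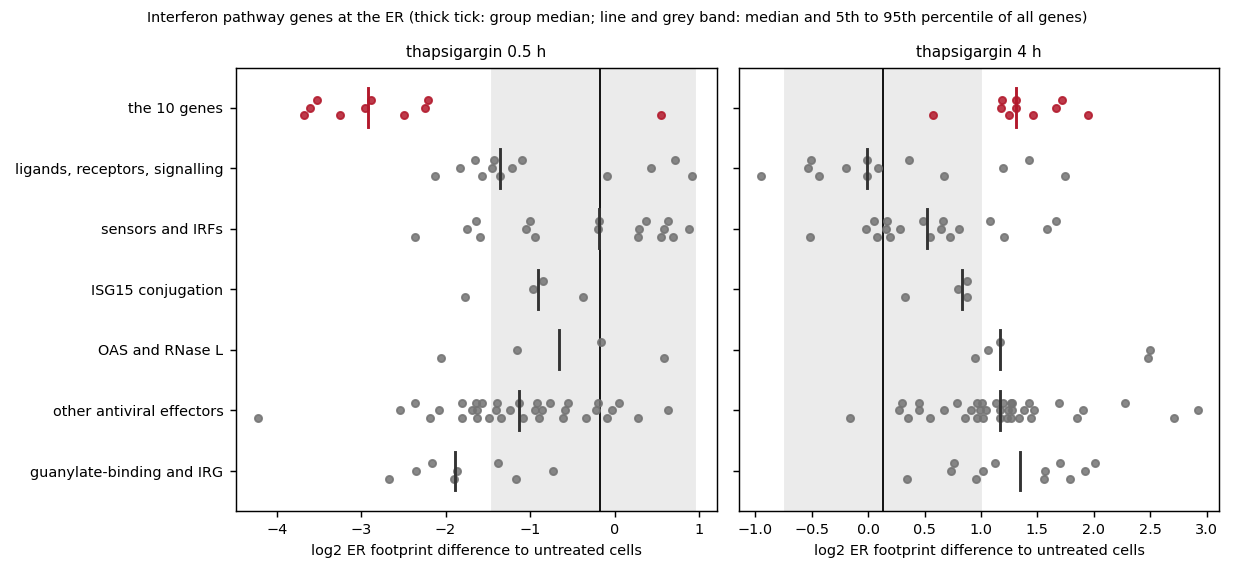
Difference in log2(ER footprint score + 1) to untreated cells at 0.5 h (left) and 4 h (right) of thapsigargin for the 10 genes (red) and 6 groups of other interferon pathway genes (grey), 1 point per gene with a thick tick at the group median. The black line and grey band give the median and the 5th to 95th percentile of all genes; the set's median is -2.92 at 0.5 h and 1.31 at 4 h.

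Genes with the most similar pattern were sought by the root mean square distance to the set's mean over 8 differences to untreated cells, 4 Tg times in 2 fractions, each centred on the median of all genes. Among 4651 genes with a value in all 10 columns and above-median mean level, the nearest outside the set included Ddx58 (0.256), Ifi205 (0.357), Parp9 (0.383) and Gbp2 (0.388), on the log2 scale. The median distance of genes outside the set was 1.22. These 4 are on the list of interferon pathway genes. Within the set the distances ran from 0.369 (Ifi44) to 0.691 (Phf11d), and Ifit2 was at 1.25, about as far as the median gene.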

How the data were processed

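Ribosome footprints and mRNA of ER and cytosol fractions were sequenced by the authors. Footprints came from nuclease-digested lysates and mRNA from RNA depleted of ribosomal RNA, per the labels' protocols, and the submitters' processing notes name Bowtie without a version. Which genome build was used is not stated. Footprint and mRNA values are the authors' scores, on a scale the file headers leave unexplained, and each deposited value pools a group. The deposited ribosome density, so named per the file headers, was computed by the authors and read here as a ratio of footprints to mRNA. The headers give no formula, so how this ratio was made by the authors before deposit is not stated. A further deposited column, without a header, marks genes TRUE or FALSE (unit other). Whether scores are divided by gene length is not stated, so scores are not compared between genes. The labels of the DTT samples name no assay, and the columns were read by their headers.

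Differences were taken on log2(value + 1) over genes with a value in the columns compared, within each table, and a gene was counted beyond 2-fold. Shares of all genes counted are over the same filter. The planned tests (limma) need replicates and were not run. The members and lists were chosen with earlier results of these data known. Named beside the members were up to 4 pathway genes highest and lowest at 4 h of Tg among those over 2-fold, 8 pathway genes always given (Stat2, Irf9, Irf7, Irf1, Ifnar1, Ifnar2, Eif2ak2, Mx1) and the 5 genes nearest in pattern, of which 4 are given. A further gene that these rules name is not reported here. Ifnb1 was named after its values were seen. Of the 108 listed symbols, 5 were not found (Rigi, Sting1, Cgas, Ube1l, Ifi27), and the first 4 are other names of listed genes. Alternatives were a pseudocount of 0.1, complete genes, blanks as 0, genes above the median level, centring on all genes, sums of fractions and single fractions. The computations were tested on simulated data and used Python 3.11.15 with pandas 2.3.3 and numpy 2.4.6.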

Additional observations from a re-analysis of the deposited data

Results flagged for a closer look

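In the ER, 9 of the 10 genes were below untreated cells at 0.5 h of Tg and above them at 4 h, each by over 2-fold, as were 0.71% of 11403 genes. The 2 comparisons share the untreated column, and the genes were selected on scores in these columns, so the counts are a description. The log2 footprint difference of 4 h minus 0.5 h was 5.35 for Isg15 and 5.56 for Usp18. It was 4.83 for Ifit1 and 3.49 for Ifit3. It was 3.81 for Oasl2 and 3.39 for Oas1a. For Ifi44, Rtp4 and Phf11d it was 4.67, 4.71 and 4.07. With 1 pooled value per column, the difference was not tested. Ifit2 went the same way at both times and is not among them.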

How the results depend on the processing

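No paired analysis was possible because each deposited column holds 1 value per gene, and for the same reason no replicate could be left out. Of 118 recomputed counts of genes over 2-fold, 102 stayed within 1.5 times the value given above. Counts were taken in the direction of the set's median only, so they could not change direction. Of 729 recomputed single-gene differences, none that was over 2-fold before changed sign. The sign of smaller differences was not checked. With blank cells as 0, mRNA counts were 5 lower at 0.5 h, 1 lower at 1 h and 6 higher at 4 h of Tg. After DTT 4 genes were higher, against 0 in each of these cases otherwise. Density counts with blank cells as 0 were 3 lower at 1 h, 3 higher at 2 h and 3 higher at 4 h. With a blank read as 0, a gene scored in only 1 of the columns compared can pass 2-fold for that reason alone. The shares of all genes under this setting are not reported here, so these counts are not read as a result about the set. The density count of 1 at 1 h was 2 with a pseudocount of 0.1. It was 0 with complete genes, 0 in the cytosol alone and 0 with density as the ratio of the deposited scores, an alternative chosen after seeing the data. At 2 h it was 1 in the cytosol alone, against 0. Untreated ER against cytosol footprints gave 1 gene after centring on all genes, against 7. For untreated mRNA, 1 gene (Oas1a) of 4 was over 2-fold higher at the ER, where 12.7% of all genes were, against 0 with complete genes, 0 after centring and 0 above the median level. The causes were not tested beyond what each setting changes. With fractions summed, Oasl2 and Oas1a were inside 2-fold at 0.5 h, at -0.83 and -0.48. Depth and counting precision are unknown, and blanks limit mRNA and density most.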
